A study of Mus musculus with 9 samples.

Results

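The potassium channel genes described here are the 92 protein-coding genes, of 45706 genes in the deposited table, whose symbol consists of Kcn, further letters and a closing number. They were chosen by symbol. The libraries came from satellite cells, the stem cells of skeletal muscle, of wild type C57Bl6 mice aged 12 to 20 weeks, and RNA sequencing covered 3 stages of myogenic differentiation. Every stage had 3 libraries, each from a different animal according to the series' design. The freshly isolated cells were purified from muscle and not cultured. Proliferating cells had spent at least 3 days in 40% DMEM, 40% Ham F-10 and 20% FCS with 2.5 ng/ml human FGF-2. Myotubes had been moved from that medium into DMEM with 2% horse serum for 6 days. No group carried a transgene, a deletion or a drug, and the purification itself is given in the labels only as a reference to an earlier publication.

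Potassium channels let potassium leave or enter a cell along its gradient and so set the resting membrane potential and shape action potentials. They fall into voltage-gated channels with their auxiliary subunits, inward rectifiers, tandem-pore leak channels, and channels opened by intracellular calcium or sodium. In the muscle lineage, myoblasts hyperpolarise before they fuse, the ether-a-go-go channel Kcnh1 and the inward rectifier Kcnj2 are known parts of that step, and mature fibres rely on inward rectifiers and ATP-sensitive channels at rest and in fatigue.

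The deposited values, here termed normalized read counts, are rounded counts per gene after scaling by the authors. Library totals lay between 17.8 and 26.2 M, and the spacing of low values put the assigned reads at an estimated 12.0 to 24.3 M. A value of 10 stood for 4.59 reads in freshly isolated replicate 1 and for 9.51 to 13.4 reads in the other libraries. Freshly isolated replicate 1 and proliferating replicate 1 stood apart from the other libraries of their stages. In the former 22.2% of all counts fell on the non-coding gene Gm26917, compared with 10.6 and 11.2% in replicates 2 and 3. That library also held Myog, the transcription factor of differentiating muscle, at 1257 against 62 and 218. The muscle gene Tmem8c was at 159 against 4 and 27 there, but Ckm was not higher (24 against 27 and 73). In proliferating replicate 1 Myog stood at 2179 against 9530 and 8749. Markers of satellite cells and of differentiating muscle were checked against the labels, and no marker list of the proliferating stage was used. The summed level of 5 satellite cell markers, Pax7 among them, was 42245 to 46761 in freshly isolated, 4994 to 6212 in proliferating and 2982 to 3637 in myotube libraries. Markers of differentiating muscle summed to 238 to 1652, 8359 to 52131 and 486122 to 575074 in the same order. The highest freshly isolated sum and the lowest proliferating sum were both in replicate 1.

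Of the 92 genes, 49 reached 10 in at least 3 libraries and were tested (53.3%), compared with 62.9% of the 21958 protein-coding genes and 37.8% of all genes in the table. By class these were 21 of 40 voltage-gated pore-forming (alpha) genes, 6 of 11 auxiliary genes, 7 of 15 inward rectifiers, 6 of 14 tandem-pore genes and 9 of 12 calcium- or sodium-activated channel genes. Kcnj1, Kcnk9, Kcnk16 and Kcnv1 were listed at 0 in all 9 libraries. The other 39 untested genes had single values of up to 44, and that highest value, of Kcnk10 in freshly isolated replicate 1, faced 0 in the other freshly isolated libraries. Just below the limit were Kcnh3 (0, 20 and 21 in the freshly isolated libraries), Kcne1 (10, 8 and 21 in the myotube libraries), Kcnk6 (10, 9 and 16 in the myotube libraries) and Kcnip2 (9, 18 and 32 in the freshly isolated libraries). Just above it were Kcnj4, at 24, 9 and 6 in freshly isolated and 12, 12 and 7 in proliferating libraries, and Kcnip3, at 5, 8 and 15 in proliferating and 12, 21 and 17 in myotube libraries. Of the genes with known roles in muscle, Kcna5, Kcnc4, Kcne3 and Kcnn2 stayed below 10 in every library. Among the 49 tested genes 13 reached 10 in libraries of 1 stage only, as did 7.85% of all tested genes. Such genes passed the filter through the stage in which they were high, so the counts and medians of tested genes below describe those genes and not all 92. Exons of 18 of the 49 tested genes overlap another annotated gene, which makes their values uncertain; among the genes given below these are Kcnma1, Kcnn1, Kcnt2, Kcnk1, Kcnk2, Kcng2, Kcnq5, Kcnab1, Kcnab3 and Kcnip4 (opposite strand) and Kcnab2 (same strand), besides those where the overlap is given with the gene.

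Freshly isolated cells were the preferred stage of most channel genes that had one. A gene was said to prefer a stage when it was above each of the other stages at an adjusted p below 0.05 (limma on log2(value + 1), Benjamini-Hochberg adjustment over 17291 genes). By this rule 24 of 49 genes preferred freshly isolated cells, against 28.6% of all tested genes, 3 preferred proliferating cells, against 12.2%, and 6 preferred myotubes, against 19.1%. The remaining 16 preferred no stage, and 6 of these passed the test in no comparison. Those of freshly isolated cells included Kcna2, Kcna3, Kcnc2, Kcnd1, Kcng2, Kcnh6, Kcnh7, Kcnq1, Kcns3 and Kcnv2 of the 21 voltage-gated alpha genes, Kcnab2 and Kcne4 among 6 auxiliary genes, Kcnj8 and Kcnj14 among 7 inward rectifiers, Kcnk1, Kcnk5 and Kcnk7 among 6 tandem-pore genes, and Kcnma1, Kcnmb3, Kcnmb4, Kcnn1, Kcnt1 and Kcnt2 among 9 calcium- or sodium-activated channel genes. Kcnf1 and Kcnn4 were among those that preferred proliferating cells. Kcna7, Kcnc1, Kcnh2, Kcnj2 and Kcnj11 were among those that preferred myotubes. Kcna2, Kcnc2, Kcnd1, Kcnh6, Kcnq1, Kcnv2, Kcne4, Kcnj8, Kcnk1, Kcnmb3 and Kcnmb4 reached 10 in freshly isolated libraries only, and Kcnj2 and Kcnj11 in myotube libraries only. They passed the filter through the stage they prefer. Such genes were 13 of the 49 but 7.85% of all tested genes, so the shares beside these counts are not like for like. In the other direction 9 genes were below each of the other stages in freshly isolated cells, against 30.1% of all tested genes (Kcnc1, Kcnf1, Kcnip3, Kcnip4, Kcnj2, Kcnj12, Kcnk13, Kcnn4 and Kcnq5), and 4 were so in myotubes, against 14.9% (Kcnj14, Kcnk4, Kcnk5 and Kcnk7). By highest mean alone, with no test, 55 of the 88 genes with any value were highest in freshly isolated cells, 15 in proliferating cells and 18 in myotubes. Untested genes, with few reads, made up 24, 7 and 8 of these counts in the same order. For such genes single reads weighed most in freshly isolated replicate 1, where a read stood for a larger value than in any other library. The share of all genes by this rule was not computed, so these counts do not set channel genes apart. Since these are bulk libraries, fewer cells that express a gene and less of its RNA per cell cannot be told apart.

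**Figure D1:**
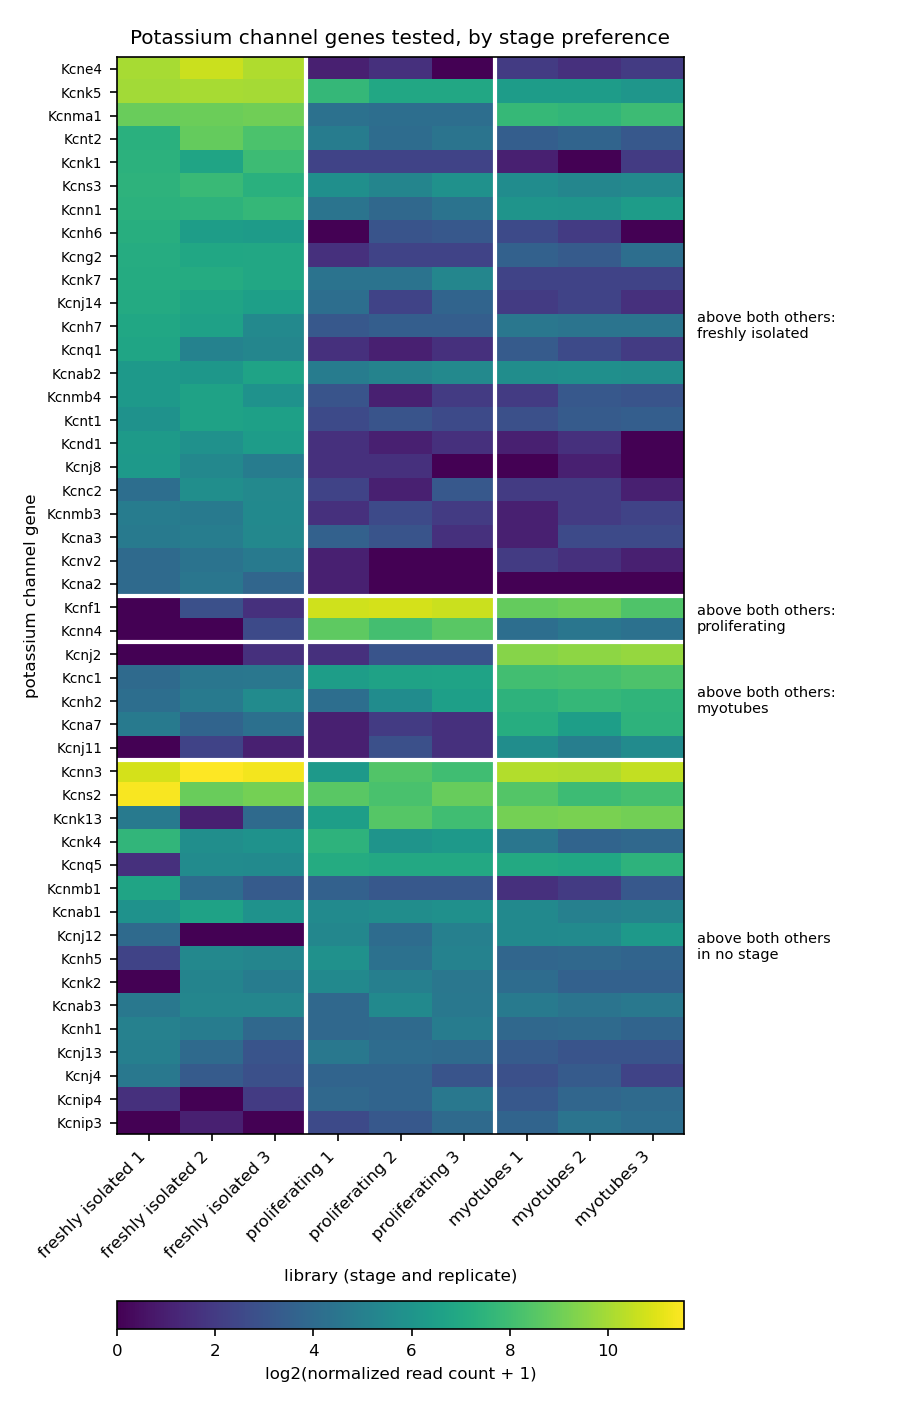
Heat map of 46 tested potassium channel genes (vertical axis) in the 9 libraries (horizontal axis), coloured by log2(normalized read count + 1) and grouped by the stage in which a gene was above both others. The top block holds 23 genes bright in the 3 freshly isolated columns, followed by 2 genes of proliferating cells, 5 genes of myotubes and 16 genes with no preferred stage.

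From freshly isolated to proliferating cells 10 of the 49 tested genes rose, against 37.6% of all tested genes, and 26 fell, against 35.7%. The median log2 change of the 49 was -1.41, and that of all tested genes 0.07. From proliferating cells to myotubes 11 rose, against 28.6%, and 7 fell, against 25.5%, with medians of -0.28 and 0.04. Myotubes set against freshly isolated cells had 13 genes higher, against 40.2%, and 28 lower, against 37.3%, with medians of -1.35 and 0.10. The 3 comparisons share libraries, so their counts are not independent of each other. Genes that reached 10 in 1 stage only were 13 of the 49 but 7.85% of all tested genes. The filter itself favoured a change in such genes, so these shares and medians are not like for like. The same holds for the counts by class below. With both libraries that stood apart left out, the counts were 12 and 26, then 14 and 9, then 13 and 31, and the stage preferences were 25, 3 and 7. Without freshly isolated replicate 1 alone, 12 genes instead of 7 were lower in myotubes than in proliferating cells. Their log2 changes do not use that library, and only the spread shared by the stages differed. Where a stage lay near 0 the size of a log2 change depended on the pseudocount. A pseudocount of 5 in place of 1 moved 49 of the 95 called changes by more than 1.5-fold, all with the call kept. From freshly isolated to proliferating cells it gave -4.23 for Kcnk1, -7.72 for Kcne4, 5.82 for Kcnn4, 7.86 for Kcnf1 and 0.84 for Kcnj2, which are described with a pseudocount of 1 below.

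**Figure D2:**
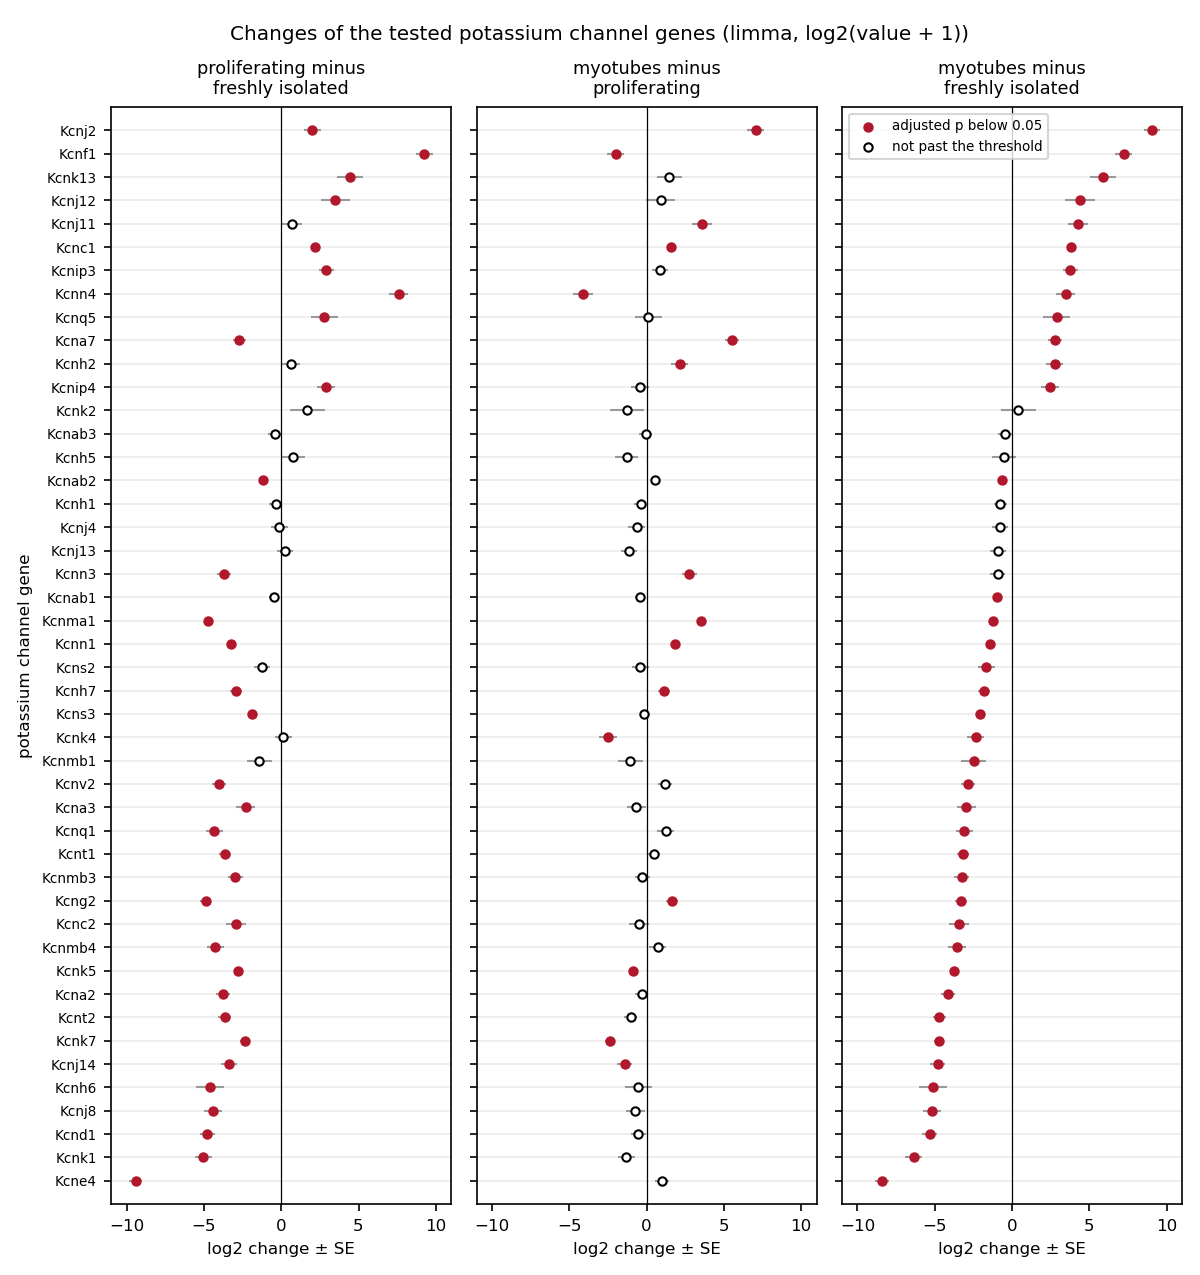
Log2 changes with their standard errors (horizontal axes) of 46 tested genes (vertical axis) in the 3 comparisons. Filled points passed an adjusted p of 0.05; in the left and right panels most filled points lie below 0 (25 and 27 genes), and in the middle panel 30 genes are open.

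Some markers of other cells in muscle fell with the genes of the freshly isolated stage, and others did not. Of 6 fibroblast markers, 5 were tested and 4 of these fell from freshly isolated to proliferating cells, while the defining Pdgfra rose from 4, 5 and 9 to 19, 13 and 22 (adjusted p = 0.00780). The 6 summed to 2984 to 4491 in freshly isolated, 25 to 37 in proliferating and 26 to 36 in myotube libraries, most of it Dpt (2449, 3554 and 3249 in freshly isolated libraries), and Dpt and Cxcl14 were at 0 in all proliferating libraries. Of 6 endothelial markers 3 were tested and 2 fell, with sums of 105 to 227, 54 to 98 and 20 to 28. Of 6 leukocyte markers 4 were tested, 2 fell and Laptm5 rose (0, 6 and 1 to 200, 158 and 179), with sums of 662 to 688, 243 to 280 and 279 to 289, while the defining Ptprc was at 0, 0 and 14 in freshly isolated libraries. All 4 Schwann cell markers were tested and 3 fell, with sums of 197 to 303, 89 to 95 and 59 to 98. Of 5 adult myofibre markers, all tested, 3 fell (Myh2, Myh4 and Pvalb) and 1 rose (Myh1) from freshly isolated to proliferating cells. All 5 rose from there to myotubes. Their sums were 2300 to 2789, 1798 to 5639 and 96817 to 123145. Pvalb was at 11, 23 and 20, then 1, 1 and 3, then 327, 207 and 530. The part of such cells in the channel results was not tested.

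The windows of 250 bases upstream of the annotated start are shown for 5 genes with large changes between stages and no annotated exon in the window, because myogenic regulatory factors such as Myod1 and Myog bind E-boxes (CANNTG). They are RefSeq sequence of GRCm38.p6, written 5′ to 3′ on the strand of the gene, with CAGCTG, or CAGGTG on either strand, in capitals. Kcnj2 lies at chr11:111065914-111066163 on the plus strand and Kcnk13 at chr12:99964249-99964498 on the plus strand. Kcnf1 lies at chr12:17176889-17177138 on the minus strand, Kcnn4 at chr7:24370013-24370262 on the plus strand and Kcnk1 at chr8:125994852-125995101 on the plus strand.
Kcnj2: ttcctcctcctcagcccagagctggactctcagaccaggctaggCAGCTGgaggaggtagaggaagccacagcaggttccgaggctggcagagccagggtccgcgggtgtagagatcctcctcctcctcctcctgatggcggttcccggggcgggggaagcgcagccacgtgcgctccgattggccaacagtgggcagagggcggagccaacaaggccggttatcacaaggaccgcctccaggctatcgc
Kcnk13: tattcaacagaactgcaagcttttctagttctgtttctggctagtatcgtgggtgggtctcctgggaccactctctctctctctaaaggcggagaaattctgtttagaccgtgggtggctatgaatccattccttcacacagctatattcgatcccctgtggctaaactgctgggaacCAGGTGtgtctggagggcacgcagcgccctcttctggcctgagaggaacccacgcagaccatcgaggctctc
Kcnf1: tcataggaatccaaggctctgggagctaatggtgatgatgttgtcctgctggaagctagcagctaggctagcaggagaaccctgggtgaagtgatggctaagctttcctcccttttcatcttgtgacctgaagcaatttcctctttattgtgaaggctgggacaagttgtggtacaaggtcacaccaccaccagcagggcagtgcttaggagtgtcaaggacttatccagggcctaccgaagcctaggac
Kcnn4: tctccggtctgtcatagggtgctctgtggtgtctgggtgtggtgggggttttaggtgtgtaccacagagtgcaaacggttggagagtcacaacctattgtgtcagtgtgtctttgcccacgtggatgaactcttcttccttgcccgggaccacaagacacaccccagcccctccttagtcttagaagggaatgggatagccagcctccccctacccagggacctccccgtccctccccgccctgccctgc
Kcnk1: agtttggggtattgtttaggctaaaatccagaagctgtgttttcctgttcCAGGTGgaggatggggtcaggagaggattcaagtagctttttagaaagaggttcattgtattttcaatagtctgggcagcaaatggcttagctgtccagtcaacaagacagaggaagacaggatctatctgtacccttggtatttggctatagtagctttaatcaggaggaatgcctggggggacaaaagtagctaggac
The Kcnj2 window, of the inward rectifier of myotubes, held CAGCTG 206 bases before the start, and the Kcnk13 window held CAGGTG 72 bases before it. The window of Kcnk1, a gene of freshly isolated cells, held CAGGTG 200 bases before the start. Neither letter string was in the windows of Kcnf1 and Kcnn4, the genes of proliferating cells. Over all 32851 promoter windows of this length 13.0% held CAGCTG, 17.2% held CAGGTG on either strand and 66.2% held CANNTG, which includes both. Of 92 windows found for 67 of the channel genes, 22.8% held CAGCTG, 23.9% CAGGTG and 66.3% CANNTG. Of 24 windows of genes preferring freshly isolated cells 8 held CAGCTG, and of 4 windows of genes preferring myotubes 1 did. These are counts of windows and not of genes. A gene can have several windows, which are not independent, and no test was run. A match describes the letters only.

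Among inward rectifiers, which carry potassium mainly near and below the resting potential, the expressed gene changed from stage to stage. Kcnj2, which encodes the main inward rectifier of muscle (chromosome 11, 111066164 to 111076821), preferred myotubes. It stood at 0, 0 and 2 in freshly isolated, 2, 7 and 7 in proliferating and 698, 763 and 851 in myotube libraries. All 3 myotube libraries were high and close to each other, and the other 6 held almost no reads of the gene. The rise from proliferating cells to myotubes was 133-fold (log2 change 7.06 ± 0.54 SE, adjusted p = 4.18e-06). In proliferating cells against freshly isolated cells the change of 2.00 passed the test (adjusted p = 0.00705), although the libraries overlapped at a value of 2. Kcnj12, a close relative of Kcnj2, was at 15, 0 and 0, then 40, 16 and 32, then 43, 45 and 73. It was lowest in freshly isolated cells, with log2 changes of 3.50 ± 0.95 to proliferating cells (adjusted p = 0.00687) and 4.40 ± 0.95 to myotubes (adjusted p = 0.00157). Those sizes rest on single freshly isolated libraries: without replicate 1 they were 4.83 and 5.73, and without replicate 2 they were 2.83 and 3.73. Kcnj14, another inward rectifier, showed the opposite order, with 131, 107 and 92 in freshly isolated, 17, 4 and 12 in proliferating and 3, 4 and 2 in myotube libraries. The fall from freshly isolated to proliferating cells was 10.4-fold (log2 change -3.38 ± 0.50, adjusted p = 0.000129). The further fall to myotubes (-1.43 ± 0.50, adjusted p = 0.0326) came with overlapping libraries, and the call was lost when any of proliferating replicates 1 and 3 or myotube replicates 1 and 3 was left out. Kcnj4 and Kcnj13 passed no test, with their highest values, 24 and 31, in freshly isolated replicate 1; the exons of Kcnj13 overlap Gigyf2 on the opposite strand, which makes its value uncertain.

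ATP-sensitive channels, which link membrane potential to the energy state, are built from a pore, Kcnj8 or Kcnj11, and a sulfonylurea receptor, Abcc9 or Abcc8, and the expressed pore gene differed between the ends of the series. Kcnj8 stood at 72, 41 and 28 in freshly isolated libraries, at 2, 2 and 0 in proliferating libraries and at 0, 1 and 0 in myotube libraries. Kcnj11 stood at 0, 4 and 1, then 1, 6 and 2, then 49, 30 and 47. The libraries of freshly isolated cells and myotubes did not overlap for either gene, in opposite directions. From freshly isolated cells to myotubes Kcnj8 fell by 5.15 ± 0.59 on the log2 scale (adjusted p = 1.78e-05), whereas Kcnj11 rose by 4.29 ± 0.66 (adjusted p = 0.000162), or by 4.89 without freshly isolated replicate 2. Abcc9, the receptor subunit of muscle, was at 442, 640 and 603 in freshly isolated, 11, 60 and 48 in proliferating and 1420, 1673 and 1751 in myotube libraries. It fell by 4.07 ± 0.49 (adjusted p = 3.17e-05) and rose again by 5.61 ± 0.49 (adjusted p = 8.79e-06), with proliferating replicate 1 the lowest library. Abcc8, the receptor known from pancreatic islets, was at 26, 7 and 5, then 22, 20 and 25, then 71, 62 and 67, and rose from proliferating cells to myotubes by 1.54 ± 0.51 (adjusted p = 0.0269). Kcnj8 and Abcc9 are also genes of pericytes. Of 7 pericyte and smooth muscle markers, all tested, Rgs5, Abcc9 and Notch3 fell and Cspg4 and Acta2 rose from freshly isolated to proliferating cells. The 7 summed to 24907 to 27370 in freshly isolated, 9723 to 22054 in proliferating and 64751 to 65488 in myotube libraries, mostly Notch3 in the first stage (23211, 21968 and 21732) and Acta2 in the last (61639, 60374 and 60888). The defining Rgs5 was at 20, 73 and 100, then 10, 4 and 5, then 66, 76 and 28. Their part in the Kcnj8 result was not tested.

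**Figure D3:**
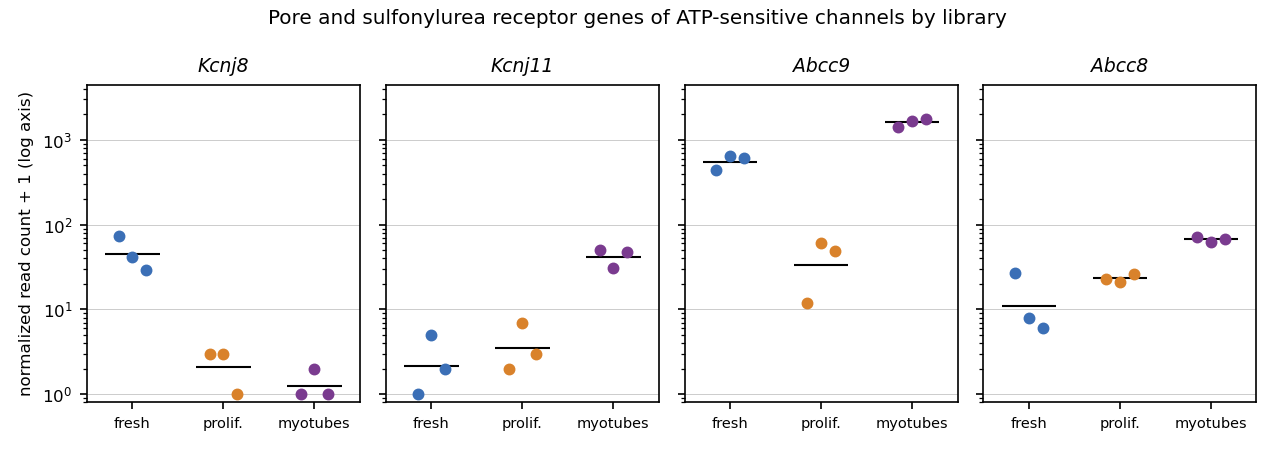
Normalized read count + 1 (vertical log axis) of the pore genes Kcnj8 and Kcnj11 and the receptor genes Abcc9 and Abcc8 in the 3 stages (horizontal axis); points are libraries and lines geometric means. Kcnj8 is high in freshly isolated cells, Kcnj11 in myotubes, and Abcc9 is lowest in proliferating cells (11, 60 and 48).

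Voltage-gated alpha subunits, which open on depolarisation and repolarise the cell, made up the largest class: 4 of 21 tested genes rose and 12 fell from freshly isolated to proliferating cells, against 37.6 and 35.7% of all tested genes. From there to myotubes 6 rose and 2 fell, against 28.6 and 25.5%. Kcnf1 preferred proliferating cells. This gene (chromosome 12, 17172100 to 17176888) encodes an electrically silent subunit that forms no channel alone and modifies those of other subunits. It was at 0, 6 and 2 in freshly isolated, 1698, 1775 and 1582 in proliferating and 450, 487 and 328 in myotube libraries. The 3 stages were separate, with the proliferating libraries within a narrow range. The log2 change from freshly isolated to proliferating cells was 9.25 ± 0.55 (adjusted p = 1.83e-07). It was 8.52 without freshly isolated replicate 1 and 9.93 without replicate 2. In myotubes Kcnf1 was 4.04-fold lower than in proliferating cells (log2 change -2.01 ± 0.55, adjusted p = 0.0107). Kcnq5, a subunit of the slow, non-inactivating M-type channels, was at 2, 47 and 45, then 135, 125 and 124, then 129, 118 and 173, lowest in freshly isolated cells. The Kcnq5 rise of 2.78 ± 0.87 (adjusted p = 0.0148) was 1.46 without freshly isolated replicate 1, the library at 2, and 3.46 without replicate 2.

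The alpha genes that preferred myotubes included Kcnc1, Kcna7 and Kcnh2. Kcnc1, of the rapidly closing channels of fast-firing cells, rose at each step, from 15, 22 and 23 to 84, 99 and 102 and on to 264, 279 and 320. The steps were 4.63-fold (log2 change 2.21 ± 0.24, adjusted p = 1.22e-05) and 3.01-fold (log2 change 1.59 ± 0.24, adjusted p = 0.000256). Kcna7, a channel of the Shaker type found mainly in heart and skeletal muscle, first fell and then rose, with 26, 12 and 18 in freshly isolated, 1, 3 and 2 in proliferating and 146, 87 and 173 in myotube libraries. None of its stages overlapped, and the changes were -2.71 ± 0.44 (adjusted p = 0.000282) and 5.51 ± 0.44 (adjusted p = 5.30e-06). Kcnh2, of the ether-a-go-go related channels that repolarise the heart, was at 17, 25 and 46, then 17, 48 and 91, then 177, 207 and 187; its rise to myotubes was 2.14 ± 0.55 (adjusted p = 0.00760) and 1.51 without proliferating replicate 1. In all 6 genes that preferred myotubes proliferating replicate 1 was the lowest library of its stage, as it was in 60.9% of the 3295 tested genes that preferred myotubes. Kcnh1, the ether-a-go-go channel named above, passed no test, with 33, 28 and 14, then 14, 15 and 28, then 14, 15 and 12; for myotubes against proliferating cells the 95% interval of the log2 change was -1.34 to 0.57.

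Of the 11 alpha genes that preferred freshly isolated cells, several were close to 0 in culture. Kcnd1, of the rapidly inactivating A-type channels, fell from 78, 56 and 82 to 2, 1 and 2 and stood at 1, 2 and 0 in myotubes (log2 change -4.78 ± 0.48 to proliferating cells, adjusted p = 8.49e-06). Kcng2, a silent subunit, fell from 139, 117 and 119 to 2, 4 and 4 (29.8-fold, log2 change -4.90 ± 0.38, adjusted p = 1.12e-06) and rose again to 11, 9 and 17 (adjusted p = 0.00448). Kcnh6, a relative of Kcnh2 with the opposite preference, was at 148, 85 and 80, then 0, 7 and 8, then 5, 3 and 0. Its change to proliferating cells was -4.61 ± 0.90 (adjusted p = 0.000961), and -3.58 without proliferating replicate 1, the library at 0. Kcna3, a Shaker-type channel best known from lymphocytes, was at 26, 29 and 41, then 11, 7 and 2, then 1, 5 and 5. Its fall to proliferating cells was 4.91-fold (log2 change -2.29 ± 0.62, adjusted p = 0.00670), and the call was lost under quantile normalization (-1.65, adjusted p = 0.0573). Kcns2, a silent subunit, varied widely between freshly isolated libraries, at 2747, 481 and 558 against 388, 296 and 471 in proliferating and 353, 237 and 281 in myotube libraries. Its fall to proliferating cells missed the threshold (-1.25 ± 0.54, adjusted p = 0.0586). It passed with the replicate block (adjusted p = 0.0293), under quantile normalization (-1.46, adjusted p = 0.0189) and without freshly isolated replicate 2 (-1.71, adjusted p = 0.0195) or 3 (-1.60, adjusted p = 0.0366), and was -0.45 without replicate 1 (adjusted p = 0.0694). For myotubes against freshly isolated cells the change was -1.65 ± 0.54 (adjusted p = 0.0173), but -0.85 without freshly isolated replicate 1, and the call was lost without myotube replicate 2 (adjusted p = 0.0582). Of the other silent subunits tested, Kcns3 and Kcnv2 preferred freshly isolated cells. Kcnq1 and Kcnh7 also preferred them, but their exons overlap Kcnq1ot1 and Gca on the opposite strand, so both values are uncertain.

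**Figure D4:**
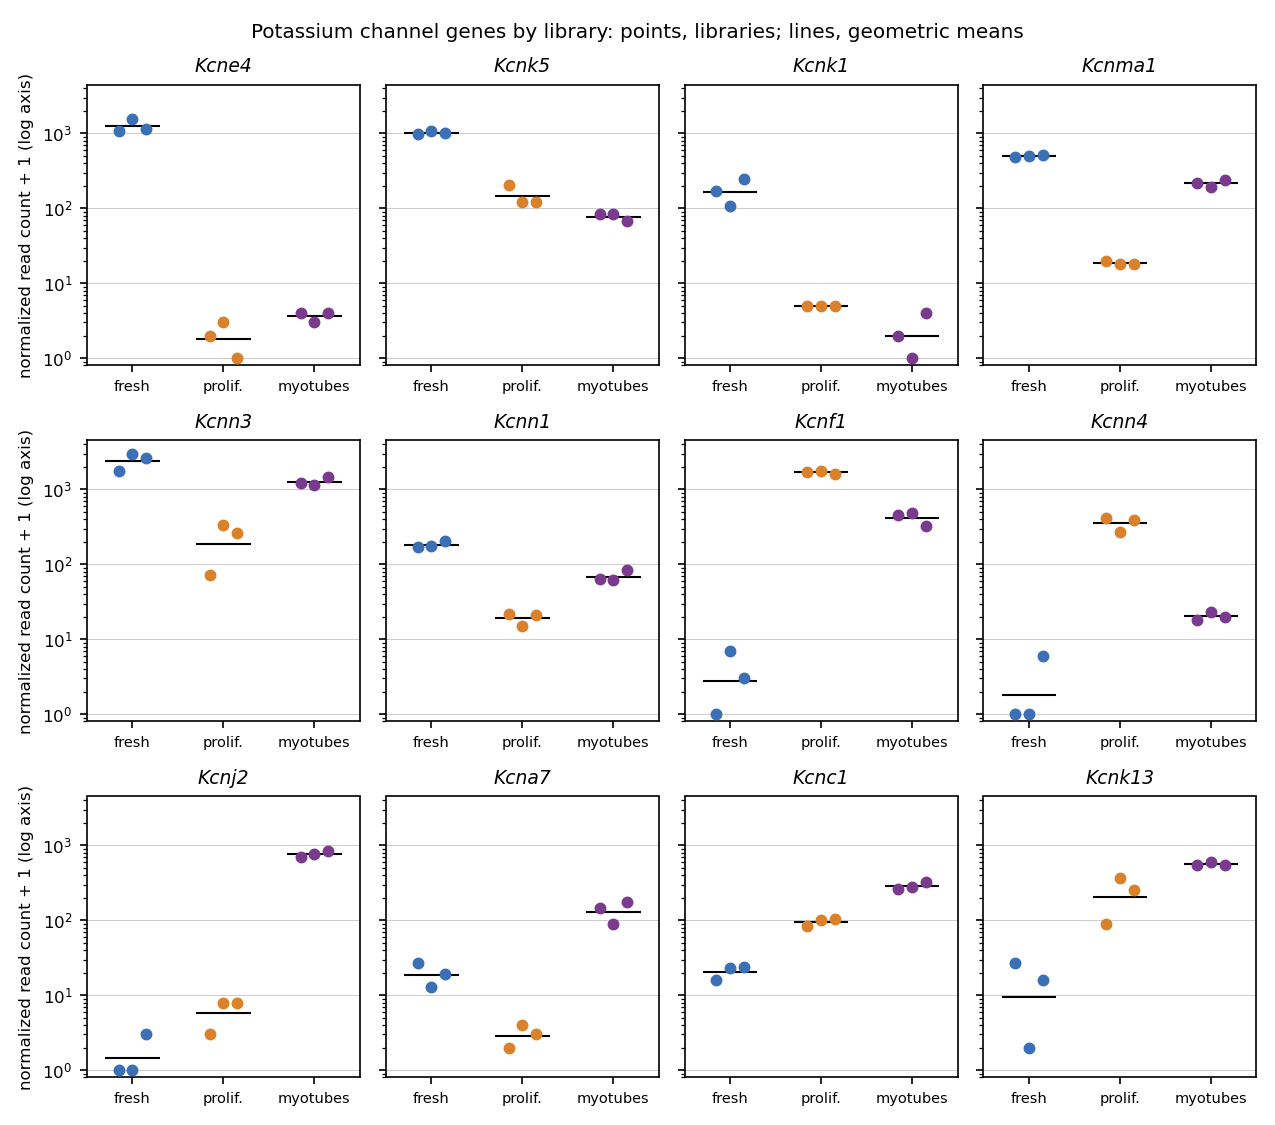
Normalized read count + 1 (vertical log axes) of 12 potassium channel genes in freshly isolated (fresh), proliferating (prolif.) and myotube libraries; points are libraries and lines geometric means. The upper row shows Kcne4, Kcnk5, Kcnk1 and Kcnma1, highest in freshly isolated cells; of these Kcnma1 dips in proliferating cells, as do Kcnn3 and Kcnn1, while Kcnf1 and Kcnn4 peak there, and Kcnj2, Kcna7, Kcnc1 and Kcnk13 are highest in myotubes.

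Auxiliary subunits, which bind alpha subunits and alter their gating and transport, were led by Kcne4, a small membrane protein that lowers currents of Kcnq1 and Shaker-type channels. Kcne4 (chromosome 1, 78816758 to 78820028) was at 1063, 1575 and 1151 in freshly isolated libraries, at 1, 2 and 0 in proliferating libraries and at 3, 2 and 3 in myotube libraries. It was high in every freshly isolated library and close to 0 in all 6 others. The log2 change of -9.42 ± 0.44 (adjusted p = 3.64e-08) from freshly isolated to proliferating cells was the largest fall of the 49 genes. Per kilobase of exon Kcne4 stood at 475 in freshly isolated cells, the highest of all 92 genes at that stage. The cytoplasmic beta subunits had smaller changes. Kcnab2 was at 74, 68 and 102, then 28, 35 and 42, then 50, 52 and 50, a 2.28-fold fall (log2 change -1.19 ± 0.27, adjusted p = 0.00259). It lay 1.57-fold lower in myotubes than in freshly isolated cells at an adjusted p of 0.0492, and that call was lost under several alternatives. Kcnab1 was at 59, 101 and 59, then 45, 49 and 55, then 43, 32 and 35, and passed only for myotubes against freshly isolated cells (-0.94 ± 0.29, adjusted p = 0.0140). Kcnab3 passed no test. Kcnip3 and Kcnip4, calcium-binding subunits of A-type channels, went the other way: Kcnip3 rose from 0, 1 and 0 to 5, 8 and 15 and stood at 12, 21 and 17 in myotubes (log2 change 2.92 ± 0.51 to proliferating cells, adjusted p = 0.000432), and Kcnip4 rose too. Kcnip2, which was not tested, was at 9, 18 and 32, then 1, 1 and 2, then 6, 5 and 1.

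Calcium-activated channels, which couple intracellular calcium to membrane potential, included several genes with a dip in proliferating cells. Kcnma1, the pore of the large-conductance channel (chromosome 14, 23289431 to 24014491), was at 482, 498 and 522 in freshly isolated, 19, 17 and 17 in proliferating and 215, 191 and 240 in myotube libraries. The stages did not overlap and the spread within each was small. The fall was 26.9-fold (log2 change -4.75 ± 0.17, adjusted p = 7.21e-09) and the return 11.6-fold (log2 change 3.53 ± 0.17, adjusted p = 5.87e-07), with myotubes still 2.33-fold below freshly isolated cells (adjusted p = 8.87e-05). Its beta subunits did not pass the test from proliferating cells to myotubes. Kcnmb4 was at 76, 101 and 58, then 7, 1 and 3, then 3, 8 and 7 (log2 change -4.27 ± 0.56 to proliferating cells, adjusted p = 5.62e-05), though its exons overlap antisense genes. Kcnmb3 also preferred freshly isolated cells. Kcnmb1, the beta subunit of smooth muscle, was at 107, 16 and 9, then 11, 8 and 8, then 2, 3 and 8, so the high value was that of freshly isolated replicate 1. Its log2 change to myotubes of -2.47 (adjusted p = 0.0164) was -1.45 without that library and lost the call without myotube replicate 1 (adjusted p = 0.0609) or 2 (adjusted p = 0.0506).

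The small-conductance channels Kcnn1 and Kcnn3, which contribute to the afterhyperpolarisation that follows an action potential, shared the dip of Kcnma1. Kcnn3 (chromosome 3, 89520164 to 89675132) was at 1774, 2989 and 2592, then 72, 338 and 258, then 1199, 1159 and 1444. It fell 12.9-fold (log2 change -3.69 ± 0.47, adjusted p = 4.42e-05) and rose 6.80-fold (log2 change 2.76 ± 0.47, adjusted p = 0.000615). Proliferating replicate 1, at 72, was the lowest library, and without it the changes were -3.02 and 2.09. Myotubes against freshly isolated cells missed the threshold (-0.92 ± 0.47, 95% interval -1.97 to 0.12). Without that library the same change of -0.92 passed (adjusted p = 0.00209), because the estimated spread differed. Kcnn1 was at 170, 173 and 204, then 21, 14 and 20, then 62, 60 and 83, a 9.58-fold fall (adjusted p = 1.52e-06) and a 3.60-fold rise (adjusted p = 0.000192). The intermediate-conductance channel Kcnn4 (chromosome 7, 24370263 to 24386690), known from dividing cells of several tissues, had the reverse pattern. It was at 0, 0 and 5 in freshly isolated, 415, 269 and 385 in proliferating and 17, 22 and 19 in myotube libraries. Its rise was 7.59 ± 0.63 on the log2 scale (adjusted p = 1.97e-06; 8.46 without freshly isolated replicate 3), and the fall to myotubes was 17.4-fold (log2 change -4.12 ± 0.63, adjusted p = 0.000326). In total 6 of the 49 tested channel genes were below both other stages in proliferating cells, against 10.9% of all tested genes: Kcnma1, Kcnn1, Kcnn3, Kcna7, Kcng2 and Kcnh7. That count is close to the share of all tested genes, so the dip does not set the channel genes apart. For Kcnh7 the call for myotubes against proliferating cells (adjusted p = 0.0355) was lost with no filter, with equal totals, under quantile normalization, with the replicate block (adjusted p = 0.0513) and without any 1 proliferating or myotube library. The sodium-activated genes Kcnt1 and Kcnt2 preferred freshly isolated cells and passed no test from proliferating cells to myotubes; Kcnt2 was at 161, 448 and 308, then 28, 16 and 21, then 10, 12 and 8.

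Tandem-pore channels carry the background leak current, and the leading gene of this class changed from Kcnk5 to Kcnk13. Kcnk5, opened by alkaline pH (chromosome 14, 20140057 to 20181809), was at 989, 1064 and 1018 in freshly isolated, 203, 122 and 122 in proliferating and 82, 82 and 66 in myotube libraries. It fell at both steps, 7.03-fold (log2 change -2.81 ± 0.21, adjusted p = 8.62e-07) and 1.88-fold (log2 change -0.91 ± 0.21, adjusted p = 0.00397). Kcnk13, a channel blocked by halothane (chromosome 12, 99964499 to 100062682), was at 26, 1 and 15, then 89, 366 and 254, then 552, 600 and 548. The stages did not overlap, and the myotube libraries varied least relative to their mean. It rose 21.4-fold to proliferating cells (log2 change 4.42 ± 0.84, adjusted p = 0.000798), with 5.17 without freshly isolated replicate 1, 3.29 without replicate 2 and 5.01 without proliferating replicate 1. The step to myotubes missed the threshold (1.48 ± 0.84, adjusted p = 0.165, 95% interval -0.40 to 3.35). Without freshly isolated replicate 2 it passed at the same log2 change of 1.48 (adjusted p = 0.0219), because the estimated spread differed. Kcnk1, a weakly conducting relative, fell 33.0-fold from 170, 107 and 242 to 4, 4 and 4 (log2 change -5.04 ± 0.54, adjusted p = 1.21e-05) and was at 1, 0 and 3 in myotubes. Kcnk7, for which no current of its own is known, was at 135, 135 and 122, then 20, 20 and 39, then 4, 4 and 4, and fell about as much at each step (-2.34 ± 0.34 and -2.38 ± 0.34, adjusted p = 0.000132 and 0.000217). The mechanically gated Kcnk4 was at 194, 51 and 58, then 174, 61 and 72, then 22, 12 and 14, and fell 5.61-fold only at the step to myotubes (adjusted p = 0.00361); its exons overlap Catsperz on the same strand. Kcnk2, also mechanically gated, was at 0, 36 and 28, then 44, 31 and 23, then 16, 11 and 11 and passed no test. Without freshly isolated replicate 1, the library at 0, the Kcnk2 change to myotubes turned from 0.40 to -1.28 (adjusted p = 0.00730).

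Sums are given for 4 of the 5 classes, without the voltage-gated alpha genes; they rested on a few genes, and long transcripts weigh more in them. Calcium- and sodium-activated channel genes summed to 2866, 4369 and 3836 in freshly isolated, 582, 680 and 723 in proliferating and 1529, 1473 and 1827 in myotube libraries, and Kcnn3, Kcnn4 and again Kcnn3 made up 66.4, 53.9 and 78.7% of the stage sums. Inward rectifiers summed to 299, 200 and 149, then 111, 76 and 81, then 828, 881 and 1000, of which Kcnj2 was 85.3% in myotubes. Tandem-pore genes summed to 1590, 1398 and 1491, then 541, 609 and 518, then 691, 721 and 666, with Kcnk5 at 68.6% of the first and Kcnk13 at 81.8% of the last stage. These 3 classes had no overlap between stages. Auxiliary genes summed to 1231, 1813 and 1393, then 114, 155 and 166, then 159, 157 and 168, and Kcne4 was 85.4% of the first stage. Per kilobase of exon the highest mean levels after Kcne4 in freshly isolated cells were those of Kcnk5 (301) and Kcnn3 (235). In proliferating cells Kcnf1 stood at 352 per kilobase, Kcnk13 at 75.9, Kcnn4 at 69.7 and Kcns2 at 68.9, and in myotubes Kcnk13 stood at 182 and Kcnj2 at 142. The values of these later stages are not a full ranking.

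**Figure D5:**
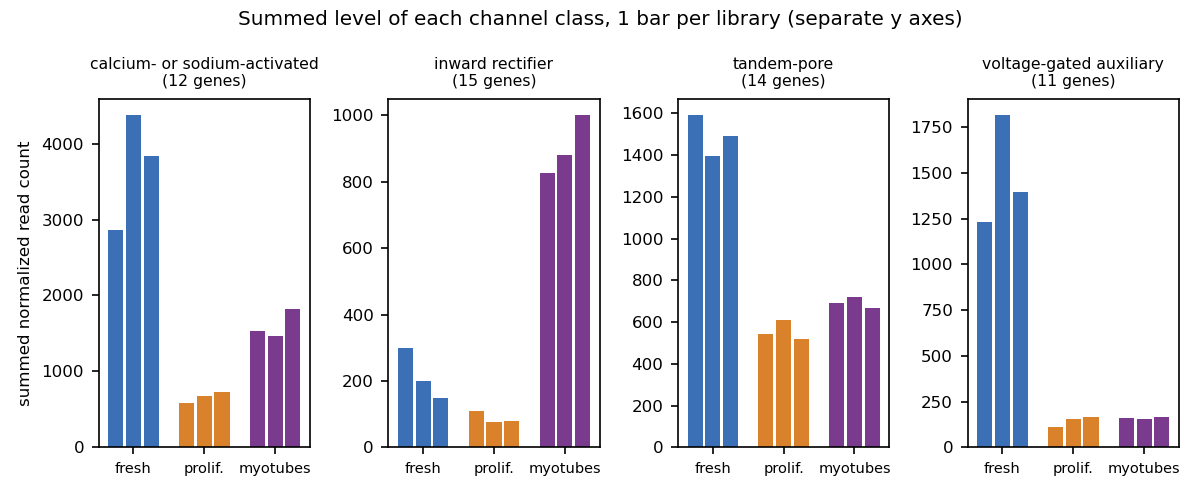
Summed normalized read counts (vertical axes, each starting at 0 with its own scale) of 4 classes of potassium channel genes, with 1 bar per library in freshly isolated (fresh), proliferating (prolif.) and myotube cells. Inward rectifier sums are highest in myotubes (828, 881 and 1000), and those of the other 3 classes in freshly isolated cells.

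Partner subunits and other genes of membrane excitability gave a setting for these levels. Of 30 listed genes 24 were tested. From freshly isolated to proliferating cells 8 rose and 8 fell, against 37.6 and 35.7% of all tested genes, and from there to myotubes 15 rose and 5 fell, against 28.6 and 25.5%. Dpp6, a partner subunit of A-type channels, rose from 61, 87 and 87 to 288, 332 and 327 and to 1110, 1125 and 1155, while Kcnd1 was at 2 or less in both cultured stages and Kcnd2 and Kcnd3 were below the limit. Scn4a, the sodium channel of skeletal muscle, rose from 19, 64 and 89 in proliferating cells to 711, 726 and 803 in myotubes (log2 change 3.93 ± 0.51, adjusted p = 0.000111), and the muscle chloride channel Clcn1 rose from 12, 21 and 13 to 70, 71 and 86. In the other direction the T-type calcium channel Cacna1g fell from 259, 367 and 263 in freshly isolated to 7, 2 and 6 in proliferating cells (log2 change -5.73 ± 0.44, adjusted p = 1.12e-06). The pacemaker channel Hcn4 fell from 44, 26 and 32 to 0, 0 and 2.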

How the data were processed

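The 9 libraries were made per the labels' protocols from 100 ng of total RNA per sample, with ribosomal RNA removed by RiboGone before SMARTer Stranded Total RNA preparation. STAR 2.4.0a, featureCounts 1.4.5-p1 of Subread and mm10 (GRCm38) are named in the submitters' processing notes. The strand setting and the tool of the normalization are not given in the sources used here, so values of overlapping genes are uncertain. The deposited score values are read counts that the authors scaled between libraries and rounded. Columns marked Q were taken as freshly isolated by elimination. The number of assigned reads per library was estimated from the step between low values.

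The filter required a value of 10 in 3 libraries and left 17291 genes. A pseudocount of 1 was added, and limma 3.58.1 in R 4.3.3 fitted the 3 stages in 1 model with a mean-variance trend, with a threshold of 0.05 after Benjamini-Hochberg adjustment over all tested genes. Fold changes come from log2(value + 1), which understates changes of low genes, and none is given where the lower stage had a mean of 3 or less. Replicates are different animals per the series' design. The scripts were tested on simulated data. Genes named with values are those with known roles in muscle, the 5 largest called rises and falls of each comparison, and the leading gene of each class and stage; Kcnh2, Kcnt2, Kcnip2, Kcne1, Kcnh3, Kcnj4 and the genes named outside the channel family were chosen after their values were seen. A few channel genes count in the totals but are not reported here, and figures leave them out. The channel genes and all lists were chosen with earlier results of these data known. Positions and exon lengths come from GENCODE vM21, and upstream windows from RefSeq. No pairing of same-numbered replicates was seen in their values, which does not exclude that they came from the same animal. Figures and tables used Python 3.11.15, pandas 2.3.3, numpy 2.4.6 and matplotlib 3.10.9. The alternatives were other pseudocounts, filters, scalings and model settings, a replicate block, and fits with libraries left out.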

Additional observations from a re-analysis of the deposited data

How the results depend on the processing

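Of 147 log2 changes of channel genes, 95 passed the test, and none of these 95 changed direction under any of the 20 alternatives. Over all alternatives 2916 values could be compared: 2797 kept direction and side of the threshold, 33 lost the call, 55 gained one and 31, none of them past the threshold in the first place, changed sign. A total of 8 results lost the call under any alternative, among them those of Kcnj14 and Kcnh7 for myotubes against proliferating cells, of Kcnab2, Kcnab1, Kcnmb1 and Kcns2 for myotubes against freshly isolated cells, and of Kcna3 for proliferating against freshly isolated cells. Leaving out 1 library moved 23 of the 95 by more than 1.5-fold, and a pseudocount of 5 moved 49. With no filter on low values 88 genes were tested instead of 49. Without freshly isolated replicate 1, 12 instead of 7 were lower in myotubes than in proliferating cells. The log2 changes of that comparison do not use freshly isolated libraries and stayed the same, at -1.27 for Kcnk2 and -1.29 for Kcnh5. What differed was the estimate of the spread shared by the stages, and with it the adjusted p. Over the fits that left out 1 library each, the counts were 10 to 12 rises and 26 to 28 falls from freshly isolated to proliferating cells, 10 to 13 higher and 6 to 12 lower in myotubes than in proliferating cells, and 13 to 13 higher and 25 to 30 lower in myotubes than in freshly isolated cells. The stage preferences were 23 to 25, 3 to 3 and 5 to 7.

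Changes of sign were as follows. For proliferating against freshly isolated cells, Kcnj4 (-0.12) was 0.05 with equal totals, 0.74 under quantile normalization and 0.29 without both libraries that stood apart, Kcnh1 (-0.36) was 0.40 under quantile normalization and 0.05 without both libraries, and Kcnab3 (-0.40) was 0.28 under quantile normalization. Without both libraries Kcnk2 (1.67) was -0.24 and Kcnh5 (0.77) was -0.59. For myotubes against freshly isolated cells, Kcnk2 (0.40) was -0.11 with a pseudocount of 5 and -1.28 without both libraries, and Kcnab3 (-0.46) was 0.09 under quantile normalization. For myotubes against proliferating cells, Kcnq5 (0.11) was -0.10 with equal totals and -0.15 under quantile normalization. Over the fits that left out 1 library each, values ranged for proliferating against freshly isolated cells from -0.52 to 0.40 for Kcnj4, from -0.01 to 2.60 for Kcnk2, from -0.23 to 1.31 for Kcnh5, from -0.32 to 0.74 for Kcnk4 and from -0.26 to 0.74 for Kcnj13. For myotubes against freshly isolated cells they ranged from -1.28 to 1.32 for Kcnk2 and from -1.52 to 0.02 for Kcnh5. For myotubes against proliferating cells they ranged from -0.50 to 0.00 for Kcna2, from -0.45 to 0.34 for Kcnab3, from -1.08 to 0.01 for Kcnc2, from -1.56 to 0.24 for Kcnh6, from -0.56 to 0.10 for Kcnmb3 and from -0.05 to 0.22 for Kcnq5. Kcnk2 was the only sign change that passed the threshold, at -1.28 without freshly isolated replicate 1, alone or with proliferating replicate 1.

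Equal totals without the 20 highest genes moved the median of all genes by 0.188 and -0.213 in the first and second comparison, quantile normalization by 0.106 and -0.125, and median of ratios scaling by at most 0.005 in size. Same-numbered replicates had correlations of their deviations between -0.034 and 0.027, and differently numbered ones between -0.058 and 0.059. No pairing by number was seen, but such a check cannot show whether same-numbered libraries came from the same animal. With a replicate block 11 genes rose and 27 fell from freshly isolated to proliferating cells, 10 higher and 8 lower in myotubes than in proliferating cells, 13 higher and 28 lower in myotubes than in freshly isolated cells, and 25, 3 and 6 preferred the stages in order. With 3 libraries a stage and values near 10 standing for few reads, a missed threshold does not show equal levels.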
